A study of Mus musculus with 37 samples.

Results

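The oxidative phosphorylation subunits are the proteins of the 4 respiratory chain complexes and of the ATP synthase, and the data give the mRNA level of each in hippocampal astrocytes. Genes were taken by symbol: those starting with Ndufa, Ndufb, Ndufc, Ndufs, Ndufv, Sdha to Sdhd, Uqcr, Cox4i, Cox5, Cox6, Cox7, Cox8 or Atp5, and the protein-coding genes of the mitochondrial genome (mt-). The prefixes matched 112 genes, and 13 of them (the Ndufaf and Sdhaf assembly factors and Atp5s) were left out. This left 99 members of the 21975 genes in the tables, 86 of them nuclear and 13 mitochondrial. Complex I counted 39 nuclear and 7 mitochondrial members, complex II 4 nuclear, complex III 8 nuclear and 1 mitochondrial, complex IV 18 nuclear and 3 mitochondrial, and complex V 17 nuclear and 2 mitochondrial. Ndufa4 was counted with complex I by its name, although its protein is now assigned to complex IV. The rule used no measured value.

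Oxidative phosphorylation couples the oxidation of NADH and succinate to the making of ATP. Complexes I and II pass electrons to coenzyme Q, complex III passes them on to cytochrome c, complex IV gives them to oxygen, and complex V uses the proton gradient that complexes I, III and IV build to make ATP. Complex II is made wholly from nuclear genes, and the others join subunits from both genomes. Astrocytes hold mitochondria in their cell bodies and fine processes and are known for a high rate of glycolysis beside their respiration.

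Adult male mice (strain CD1 in the methods, CD31 in the sample labels) received a severe unilateral controlled cortical impact (CCI) or sham surgery, and astrocytes were isolated from each hippocampus 4 months later with beads that bind the surface antigen ACSA-2. Injured mice were PTE+ if EEG recording found repeated spontaneous seizures (post-traumatic epilepsy) and PTE- if it did not, and the SHAM mice had the craniectomy and electrodes without impact, so that all 3 groups carried electrodes. The contralateral hippocampus gave 5 PTE+, 10 PTE- and 5 SHAM libraries and the ipsilateral one 4, 8 and 5, from 20 mice, of which 17 gave both sides. Each library is a bulk of the cells of 1 hippocampus, in which fewer cells of a type and less RNA per cell cannot be told apart.

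Contralateral libraries held 25371887 to 55333329 counts and ipsilateral ones 36925501 to 59846479, with counts for 9020 to 15545 genes. All 10 astrocyte markers (such as Aqp4, Slc1a3 and Aldoc) were above 3 counts in all 37 libraries, and their summed level was 11750 to 20990 TPM (a level corrected for transcript length and library size) in 36 of them. The ipsilateral library of PTE- mouse a8_11 stood apart, with 5630 TPM of these markers, 9020 genes with counts, the fewest of all, and 6798 TPM of the 5 ependymal and choroid plexus markers (such as Ttr). Ipsilateral PTE- a9_12 held 8774 TPM of the latter list, against 24.3 to 1435 TPM in the remaining 35 libraries. Markers of other cells were present as well. Over all libraries the sums were 104 to 16540 TPM for 4 red blood cell, 156 to 6262 TPM for 6 endothelial and 543 to 3752 TPM for 5 mural (vessel wall) markers. In contralateral PTE- a9_14 the red blood cell sum of 16540 TPM was above the astrocyte sum of 15030 TPM. Mouse a8_11 also held the highest nuclear subunit sums of its group on both sides, and values without it are given beside results that it moved.

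Nearly all subunits were expressed at a high level. Of the 86 nuclear members, 73 had a mean above 100 TPM over the 37 libraries and 82 a mean above 5 TPM, and 89 of the 99 members were above 3 counts in every library. Cox8c, the testis form of a complex IV subunit, was listed at 0 in all libraries, and the second of the 2 identifiers named Atp5o never passed 3 counts. The nuclear members with the highest means were Cox8a (2138 TPM, range 899 to 5642), the smallest subunit of complex IV, and Atp5b (1924 TPM, 1383 to 2708), the catalytic beta subunit of the ATP synthase. They were followed by Cox6a1 of complex IV (1418 TPM), Uqcr11 of complex III (1103 TPM) and Cox4i1 of complex IV (1089 TPM). In complex I the highest nuclear member was the accessory subunit Ndufa12 (743 TPM) and in complex II it was the iron-sulfur subunit Sdhb (406 TPM). Among the catalytic core subunits of complex I, Ndufs7 reached 682 TPM, Ndufv1 351, Ndufs8 350.0, Ndufv2 286 and Ndufs1 131, while the core subunits Uqcrc1 and Uqcrfs1 of complex III had 739.7 and 316 TPM. Cox5a and Cox5b of complex IV had 476 and 647 TPM, and the alpha and gamma subunits of complex V, Atp5a1 and Atp5c1, had 738 and 473 TPM.

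The mitochondrial mRNAs were higher and far less even. The 3 highest were mt-Atp6 (9220 TPM, range 2840 to 24731) and mt-Atp8 (6244 TPM) of complex V and mt-Co3 of complex IV (8330 TPM), and the lowest was mt-Nd5 of complex I (668 TPM, range 69.3 to 1472). All 7 complex I members had lower means than each of the 6 others, the highest of them being mt-Nd1 at 3805 TPM and the lowest of the others mt-Cytb of complex III at 4191 TPM. mt-Atp8 overlaps mt-Atp6 and mt-Nd4l overlaps mt-Nd4 on the same transcripts, mt-Nd6 lies on the other strand and overlaps the end of mt-Nd5 while the kit keeps no strand, and the TPM of such short genes divides few counts by a small length, so the levels of these genes are uncertain. Many nuclear subunit genes also have near-identical processed pseudogenes elsewhere in the genome, between which the authors' counting could split reads.

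**Figure D1:**
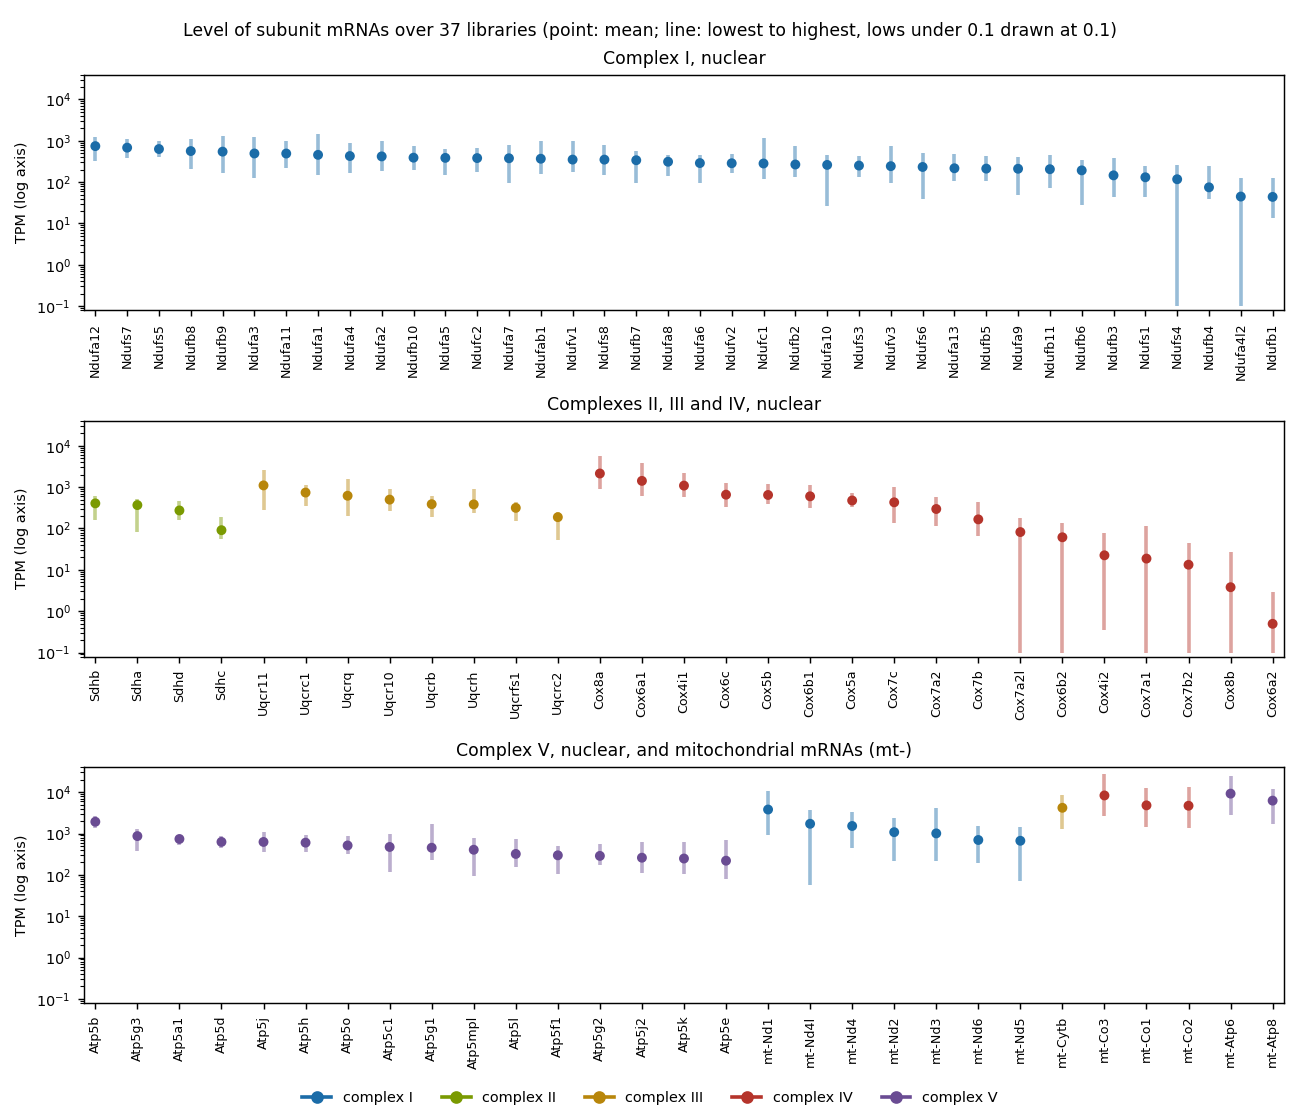
Level of subunit mRNAs over the 37 libraries on a log axis in TPM, ordered by mean within each complex, with a point for the mean and a line from the lowest to the highest library. Cox8a at 2138 TPM leads the nuclear members, mt-Atp6 at 9220 TPM the mitochondrial ones, and the muscle and testis forms of complex IV sit at the low end; Cox8c and the second Atp5o identifier are among the members not drawn.

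Subunits with tissue-specific forms were measured mainly as their widely expressed form. Cox4i1, the large regulatory subunit of complex IV, had a mean of 1089 TPM and its lung-enriched form Cox4i2 22.5 TPM, with Cox4i1 higher in 37 of 37 libraries. Cox6a1 had 1418 TPM and its heart and muscle form Cox6a2 0.495 TPM, above 3 counts in 10 libraries. Cox8a had 2138 TPM and the heart and muscle form Cox8b 3.80 TPM, above 3 counts in 13 libraries. Cox6b1 had 601 TPM and the testis form Cox6b2 61.3 TPM, a share of up to 20.2% of the pair in ipsilateral PTE- a8_14 (median 9.02%). Cox7a2 had 296 TPM and the heart and muscle form Cox7a1 18.7 TPM, and the only library with more Cox7a1 than Cox7a2 was contralateral PTE- a9_20, where Cox7a1 made 50.2% of the pair (median 4.73%). Ndufa4 had 428 TPM and its hypoxia-responsive relative Ndufa4l2 44.8 TPM, up to 33.9% of the pair (median 8.51%) in ipsilateral SHAM a9_11. That library also held the highest sum of mural markers of all 37, at 3752 TPM against a median of 1699 TPM. The part of such cells in this share was not tested. The rotor ring of complex V is built from 1 mature protein made by 3 genes, and of these Atp5g3 had 867 TPM, Atp5g1 453 TPM and Atp5g2 288 TPM. Atp5g1 was above Atp5g3 only in ipsilateral PTE- a8_11, at 1714 TPM.

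Upstream sequence is shown for the pair of isoforms with unequal levels, for 2 other highly expressed members and for 3 members that the ipsilateral comparisons turned on. It is the 250 bases before the RefSeq start site, 5′ to 3′ on the strand of the gene, on GRCm38.p6. Capitals mark matches on either strand to the palindromic site of nuclear respiratory factor 1 (NRF1), CCGGAAG (ETS factors, a family that includes nuclear respiratory factor 2), CCAAT (nuclear factor Y) and CACGTG (an E-box). TATAAA and the YY1 site were also searched and are in none of these windows. The windows are those of Cox8a at chr19:7217617-7217866 (minus strand), Cox8b at chr7:140900447-140900696 (minus strand), Cox6a1 at chr5:115348959-115349208 (minus strand), Atp5b at chr10:128083057-128083306 (plus strand), Ndufb2 at chr6:39592315-39592564 (plus strand), Atp5g1 at chr11:96075632-96075881 (minus strand) and Ndufv1 at chr19:4012756-4013005 (minus strand).
Cox8a promoter: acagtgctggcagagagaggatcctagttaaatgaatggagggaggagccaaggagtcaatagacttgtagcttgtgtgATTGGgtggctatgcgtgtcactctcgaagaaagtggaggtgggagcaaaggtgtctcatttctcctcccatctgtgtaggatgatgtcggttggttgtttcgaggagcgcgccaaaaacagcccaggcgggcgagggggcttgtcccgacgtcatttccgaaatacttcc
Cox8b promoter: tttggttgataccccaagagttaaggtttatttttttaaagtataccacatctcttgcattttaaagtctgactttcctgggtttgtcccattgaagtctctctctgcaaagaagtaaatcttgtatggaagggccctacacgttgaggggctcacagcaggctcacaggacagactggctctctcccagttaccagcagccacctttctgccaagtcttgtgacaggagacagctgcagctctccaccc
Cox6a1 promoter: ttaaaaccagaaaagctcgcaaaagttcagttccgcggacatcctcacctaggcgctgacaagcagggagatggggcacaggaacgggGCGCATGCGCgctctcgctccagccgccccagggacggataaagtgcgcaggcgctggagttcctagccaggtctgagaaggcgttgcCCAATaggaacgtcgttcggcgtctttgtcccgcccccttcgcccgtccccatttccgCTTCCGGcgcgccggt
Atp5b promoter: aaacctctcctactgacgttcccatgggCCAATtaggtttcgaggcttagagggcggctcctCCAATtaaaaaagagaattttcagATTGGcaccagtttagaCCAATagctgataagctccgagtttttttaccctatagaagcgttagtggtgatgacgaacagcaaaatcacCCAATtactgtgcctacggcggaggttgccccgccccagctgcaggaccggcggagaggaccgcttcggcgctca
Ndufb2 promoter: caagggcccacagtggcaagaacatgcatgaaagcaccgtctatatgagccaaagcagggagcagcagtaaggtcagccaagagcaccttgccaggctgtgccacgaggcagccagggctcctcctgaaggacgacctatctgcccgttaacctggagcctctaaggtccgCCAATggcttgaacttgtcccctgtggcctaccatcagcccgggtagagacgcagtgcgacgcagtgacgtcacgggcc
Atp5g1 promoter: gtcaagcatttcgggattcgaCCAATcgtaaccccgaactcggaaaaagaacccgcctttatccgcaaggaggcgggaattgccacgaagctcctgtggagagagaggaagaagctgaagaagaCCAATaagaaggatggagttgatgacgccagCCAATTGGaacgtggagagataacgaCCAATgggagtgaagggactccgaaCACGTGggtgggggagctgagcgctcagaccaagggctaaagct
Ndufv1 promoter: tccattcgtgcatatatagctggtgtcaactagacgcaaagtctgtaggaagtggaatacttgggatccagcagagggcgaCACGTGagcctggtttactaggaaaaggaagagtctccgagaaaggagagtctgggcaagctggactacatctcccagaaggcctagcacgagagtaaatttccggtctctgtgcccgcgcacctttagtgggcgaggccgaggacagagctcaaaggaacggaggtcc

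The widely expressed Cox8a had 1 CCAAT match, read on the opposite strand as ATTGG, and the muscle form Cox8b had none of the motifs. Cox6a1 held an NRF1, a CCAAT and an ETS match in 1 window, Atp5b 5 CCAAT matches, and Atp5g1 5 CCAAT matches, 2 of which overlap on opposite strands, with an E-box. A promoter was in the RefSeq table for 68 of the 85 nuclear members with a symbol of their own, and for none of the mitochondrial ones. The NRF1 sequence was found in 4 of these 68 (Atp5g2, Atp5k, Cox6a1 and Ndufa11), or 5.88% against 0.877% of the 27025 genes in the table, and the ETS sequence in 12, or 17.6% against 7.83%. CCAAT was in 42.6% against 37.5%, CACGTG in 7.35% against 6.86%, TATAAA in 8.82% against 14.3%, and the YY1 site in none of the 68 against 0.248%. Members' windows had a median GC content of 56.0% and all windows 52.4%. These are matches of letters only, with no data here on the binding of any factor.

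The summed nuclear mRNAs were steady and the mitochondrial ones were not. Nuclear subunits summed to a mean of 35030 TPM, 3.50% of all TPM, with a range of 26120 to 53860 TPM and a coefficient of variation of 19.2% over the 37 libraries. Mitochondrial subunits summed to a mean of 47980 TPM, 4.80% of all TPM, with a range of 14780 to 122300 TPM, an 8.28-fold difference, and a coefficient of variation of 50.2%. The mitochondrial sum was above the nuclear one in 25 of 37 libraries. Complex I made 36.2% of the nuclear sum, complex V 25.3%, complex IV 23.2%, complex III 12.1% and complex II 3.25%. Complex II was the least variable of these sums, at 11.8%, followed by complex V at 12.4%, complex I at 21.0%, complex III at 24.4% and complex IV at 31.5%. Among members above 100 TPM the 2 most even were Atp5b and Atp5a1, the catalytic hexamer of complex V, each with a within-group SD of 0.19 in log2(TPM + 1). At that level the median SD was 0.46 for the nuclear and 0.84 for the mitochondrial members, and it was 0.56 over all 1736 genes above that level.

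By group, the nuclear sum was 36890 ± 8031 TPM (SD, n = 5) in contralateral PTE+, 35230 ± 8127 (n = 10) in contralateral PTE- and 35020 ± 4592 (n = 5) in contralateral SHAM libraries. On the ipsilateral side it was 31070 ± 2297 (n = 4) in PTE+, 35530 ± 7884 (n = 8) in PTE- and 35150 ± 6111 (n = 5) in SHAM libraries. The ipsilateral PTE+ libraries lay close together, at 34480, 30350, 29890 and 29570 TPM, within the range of both other groups. The ipsilateral PTE- libraries ran from 27160 to 51860 TPM with a median of 32690, and the highest was a8_11. Nuclear complex IV had 6413 ± 1203 TPM in PTE+, 8047 ± 2309 in PTE- and 8229 ± 2392 in SHAM libraries. The mitochondrial sum was 66340 ± 26140 TPM in contralateral PTE+, 50210 ± 31490 in contralateral PTE- and 43560 ± 16730 in contralateral SHAM libraries, with ranges that overlapped widely. The ipsilateral groups had 40260 ± 17230, 41750 ± 18490 and 45750 ± 24600 TPM in the same order. All of these differences between group means were smaller than the larger SD of the groups compared. That SD is the spread of single libraries, not the error of a difference between means, and the sums were not tested.

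**Figure D2:**
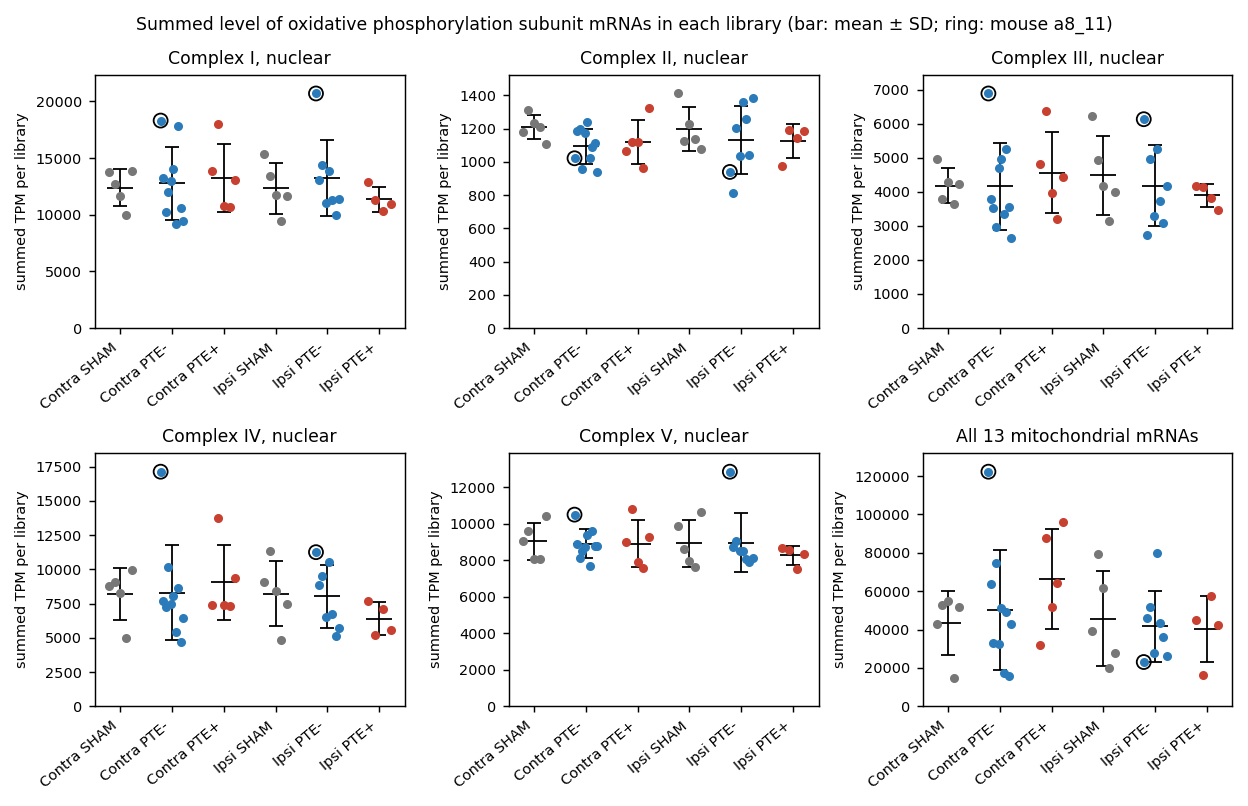
Summed TPM of the nuclear subunits of each complex and of the 13 mitochondrial mRNAs, with 1 point per library, the mean ± SD of each group as a bar, and a ring around the libraries of mouse a8_11. The groups overlap in all panels, and the highest complex IV sum (17140 TPM, contralateral) and complex V sum (12840 TPM, ipsilateral) are those of a8_11.

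The 3 groups were compared within a side to ask whether astrocytes of mice that developed epilepsy differ from those of injured mice that did not and of SHAM mice. edgeR's quasi-likelihood test was fitted over all genes, and a gene was called by the criteria of the study's methods, an unadjusted p under 0.05, a change of at least 1.2-fold and a mean above 5 TPM in at least 1 of the compared groups. Levels of single genes in these comparisons are CPM (counts scaled to the library size after TMM normalization), which set libraries, not genes, beside each other. With Benjamini-Hochberg adjustment over all genes tested, edgeR called none of the members in any comparison of groups or sides (lowest adjusted p = 0.789), and of all genes 0.00683% in contralateral PTE+ against PTE- and 0% in the others, so the calls below rest on unadjusted p-values. The contrasts within a side share libraries and are not independent of each other.

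On the contralateral side, no subunit mRNA passed the test between PTE+ and PTE- astrocytes. None of the 96 members tested met the criteria, against 1.26% of the 14642 genes, and none had an unadjusted p under 0.05 in edgeR, against 2.21%, while DESeq2 gave 2 (Cox7a1 and Atp5b, both lower) and limma on log2(TPM + 1) gave 1 (Ndufa1, higher). The 83 nuclear members had a median log2 fold change of -0.20, with 71 below 0, the 13 mitochondrial ones 0.05, and all genes tested -0.05. The mitochondrial median had opposite signs by name prefix, at -0.625 within a8 mice and 0.76 within a9 mice. The 1735 genes above 100 TPM had a median of -0.18. The median over all members was -0.11 within a8 mice and -0.22 within a9 mice, but 0.16 in the limma fit on log2(TPM + 1), where that of all genes was 0.28. Without contralateral PTE- a8_11 the median over the members was 0.04, the nuclear one -0.04 and the mitochondrial one 0.46, without PTE+ a8_17 it was -0.37 with 3 members called, and without PTE+ a9_17 1 member was called. All 9 neuronal markers (median 1.36) and all 6 endothelial markers (median 0.90) were higher in PTE+, with summed levels of 97.3 to 1250.0 and 957 to 6262 TPM in PTE+ and of 92.1 to 237 and 491 to 2717 TPM in PTE- libraries, and their part in these values was not tested. The 4 members with the smallest p were Ndufv3, Cox7a1, Atp5b and Cox8b. Ndufv3, an accessory subunit of the NADH-oxidizing module of complex I, measured 102, 110.3, 58.3, 83.5 and 76.6 CPM in PTE+ libraries and from 81.0 to 163 with a median of 127.5 in PTE- libraries (log2 fold change -0.49 ± 0.27, SE, edgeR p = 0.0849). Its groups overlapped, with 2 of the 5 PTE+ libraries below all PTE- ones. Atp5b measured 1482 to 2064 CPM in PTE+ and 1674 to 2710 CPM in PTE- libraries (-0.22 ± 0.12, p = 0.0964, and -0.14 without PTE- a8_11). The muscle forms Cox7a1 and Cox8b were low in all groups, with PTE+ libraries at 0.0786 to 1.43 CPM of Cox7a1 and 4 of 5 at 0 for Cox8b, and the PTE- libraries reached 14.6 and 2.48 CPM.

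Between contralateral PTE- and SHAM astrocytes 1 member was called, close to the share of all genes. Ndufv3 was higher in PTE- libraries (log2 fold change 0.59 ± 0.27, edgeR p = 0.0418), and it was the only one of 96 members called, against 0.751% of all genes (0.485% higher). By an unadjusted p under 0.05 alone it was again the only member, against 226 of the 14642 genes. The SHAM libraries measured 86.4, 97.1, 97.3, 81.8 and 39.4 CPM, so the lowest of them, a9_11, lay well under the other 4, and without it the change was 0.41 (p = 0.139). The 2 groups overlapped between 81.0 and 97.3 CPM. Of the members next in order of p, Cox7a2l, which helps to join complexes III and IV into supercomplexes, measured 14.5 to 129 CPM in PTE- and 22.3 to 45.7 CPM in SHAM libraries (0.88 ± 0.46, p = 0.0683, with p = 0.0266 without PTE- a8_14 and 0.0324 without a9_20). Cox7a1 had a fitted value of 2.65 ± 1.46 (p = 0.0827, and p = 0.0427 without PTE- a8_9) at levels of 0 to 14.6 CPM, and the accessory complex I subunit Ndufa11 had 0.47 ± 0.34 (p = 0.177, and 0.31 without PTE- a9_15). The nuclear members had a median of 0.15, the mitochondrial ones 0.39 and all genes 0.07. The mitochondrial median was 0.718 within a8 mice and -0.025 within a9 mice. The members' median was 0.17 within a8 and 0.08 within a9 mice, and -0.03 in the limma fit, against -0.22 over all genes. Without a8_11 the median over all members was -0.07 in place of 0.17, the nuclear one -0.07 and the mitochondrial one 0.01. No member was called without PTE- a8_11, a8_13, a9_14 or a9_15 or SHAM a8_15, a9_10 or a9_11, and 2 were without PTE- a8_14 or a9_20. All 8 microglial markers were higher in PTE- (median 0.97), with summed levels of 27.1 to 1326 TPM in PTE- and 148 to 622 TPM in SHAM libraries, and their part in these values was not tested.

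Contralateral PTE+ and SHAM astrocytes showed no called member, against 0.512% of all genes, and edgeR gave none with an unadjusted p under 0.05, against 1.23%, as did DESeq2 and limma on log2(TPM + 1). Without PTE+ a8_17 1 member was called. The nuclear median was -0.05 (-0.24 without PTE+ a8_17 and 0.06 without SHAM a9_9) and that of all genes 0.03, while the 13 mitochondrial mRNAs had a median of 0.53, with 12 above 0. The smallest p was that of mt-Nd5, a proton-pumping subunit of complex I, with 436, 1247, 729, 1158 and 1501 CPM in PTE+ and 521, 1005, 629, 748 and 144 CPM in SHAM libraries (0.74 ± 0.48, p = 0.142, and 0.48 without SHAM a9_11). The lowest of these SHAM libraries, a9_11, was also the one with the lowest mitochondrial sum of all 37, and without it the mitochondrial median was 0.29. Within a8 mice this median was 0.12 and within a9 mice 0.82, and all 6 endothelial markers were higher in PTE+ as well (median 0.96), a difference whose part was not tested. Cox7a2l measured 46.2 to 77.5 CPM in PTE+ and 22.3 to 45.7 CPM in SHAM libraries (0.73 ± 0.51, edgeR p = 0.167). Sdhd, the membrane anchor of complex II, had -0.44 ± 0.30 (p = 0.155), with -0.67 without PTE+ a8_17 (p = 0.0386) and -0.19 without SHAM a8_16 (p = 0.524). Cox7b of complex IV had -0.79 ± 0.56 (p = 0.174), and -0.43 without SHAM a9_9. In Cox7b, 2 SHAM libraries were high, at 158 and 168 CPM, and 3 were at 24.9 to 56.6 CPM, so the spread within SHAM exceeded the difference.

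**Figure D3:**
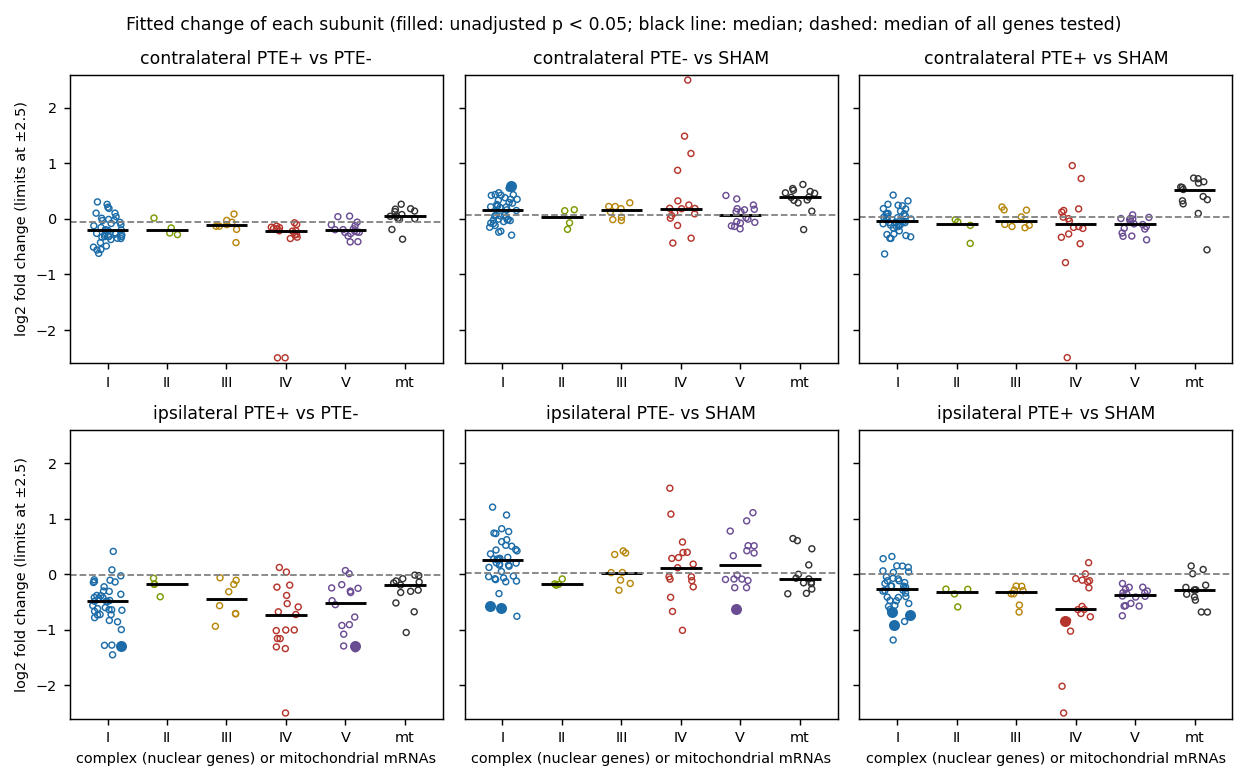
Fitted log2 fold change of each member in the 6 comparisons within a side, by complex for the nuclear members and together for the mitochondrial mRNAs (mt), with black lines for the medians, a dashed line for the median of all genes tested and filled points for an unadjusted edgeR p under 0.05. Values beyond 2.5 in either direction are drawn at that limit. Most points of the ipsilateral PTE+ comparisons lie under the dashed line, and the panels of contralateral PTE+ hold no filled point.

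On the ipsilateral side, 2 subunit mRNAs were called lower in PTE+ than in PTE- astrocytes, against 0.503% of all genes (0.429% lower), and neither call held without PTE- a8_11. By an unadjusted edgeR p under 0.05 alone it was the same 2 of 97 members, against 1.75% of all genes. Of the 97 members tested, 91 had a fitted value below 0, with a median of -0.48, which is about the SD of the members' median level between libraries of these groups (0.46 on the log2 scale), against -0.01 over all 14903 genes and -0.16 over the 1735 genes above 100 TPM. The median was -0.51 for the nuclear and -0.20 for the mitochondrial members (0.11 without PTE+ a9_17 and 0.06 without PTE- a9_13), and by complex of the nuclear members it was -0.49 in I, -0.18 in II, -0.44 in III, -0.73 in IV and -0.51 in V. Without a8_11, whose nuclear sum was 51860 TPM, the median over the members was -0.21 with 82 of 97 below 0, against -0.004 over all genes. The nuclear median was then -0.22, and by complex it was -0.16 in I, -0.15 in II, -0.16 in III, -0.44 in IV and -0.28 in V. Without both a8_11 and a9_12 it was -0.26 with 84 of 96 below 0. Among mice with the prefix a8 in their name (1 PTE+ library) the median was -0.78, and among those with a9 it was -0.14. Other genes shared the direction: the cytosolic ribosome list had a median of -0.82, with 75 of 82 below 0, and -0.32 without a8_11. All 5 ependymal and choroid plexus markers were also lower in PTE+ (median -1.40), and their summed level ran from 24.3 to 1297 TPM in PTE+ and from 174 to 8774 TPM in PTE- libraries. The 2 PTE- libraries with the highest levels were a8_11 and a9_12, and the members' median without both is the -0.26 given above. On the log2(TPM + 1) scale of limma the medians were -0.10 for the members and 0.25 for all genes.

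The first of the 2 called members, Ndufb2 (ENSMUSG00000002416, chr6:39592574-39603382), is an accessory subunit of the membrane arm of complex I and measured 27.0, 25.9, 23.0 and 33.1 CPM in PTE+ libraries and 26.1 to 211 CPM with a median of 44.7 in PTE- libraries. The PTE+ libraries were even, the PTE- ones were not, and a8_11 at 211 CPM lay far above the next, at 80.6 CPM (log2 fold change -1.29 ± 0.58, edgeR p = 0.0398, and -0.72 without a8_11, p = 0.0736). Atp5g1 (ENSMUSG00000006057, chr11:96068852-96075670), which encodes the proton-carrying c subunit of complex V, measured 85.0, 62.2, 57.3 and 49.0 CPM in PTE+ and 59.2 to 642 CPM with a median of 92.0 in PTE- libraries. Again a8_11 stood alone, at 642 CPM against 119.5 in the next (-1.30 ± 0.61, p = 0.0470, and -0.43 without it, p = 0.160). Ndufa9, which sits where the 2 arms of complex I meet, measured 118, 115.5, 119 and 48.9 CPM in PTE+ and 107 to 221 CPM in PTE- libraries (-0.64 ± 0.32, p = 0.0581, and -0.41 without PTE+ a9_19). Cox8a measured 333, 127, 209.7 and 192 CPM in PTE+ and 144 to 1254 CPM in PTE- libraries, the highest again from a8_11 (-1.02 ± 0.51, p = 0.0592, and -0.53 without a8_11, p = 0.178). Neither Ndufb2 nor Atp5g1 passed within the a8 mice or within the a9 mice alone, where the fitted values were -2.09 and -0.50 for Ndufb2 and -1.72 and -0.58 for Atp5g1. DESeq2 gave 12 members with an unadjusted p under 0.05, all lower, among them Ndufb2 (-1.40) but not Atp5g1 (-0.42). No member was called without PTE+ a9_17, a9_18 or a9_19 or PTE- a8_11 or a9_13, 1 was without PTE+ a8_10, 5 were without PTE- a9_12 or a9_16, and 6 without a9_15.

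**Figure D4:**
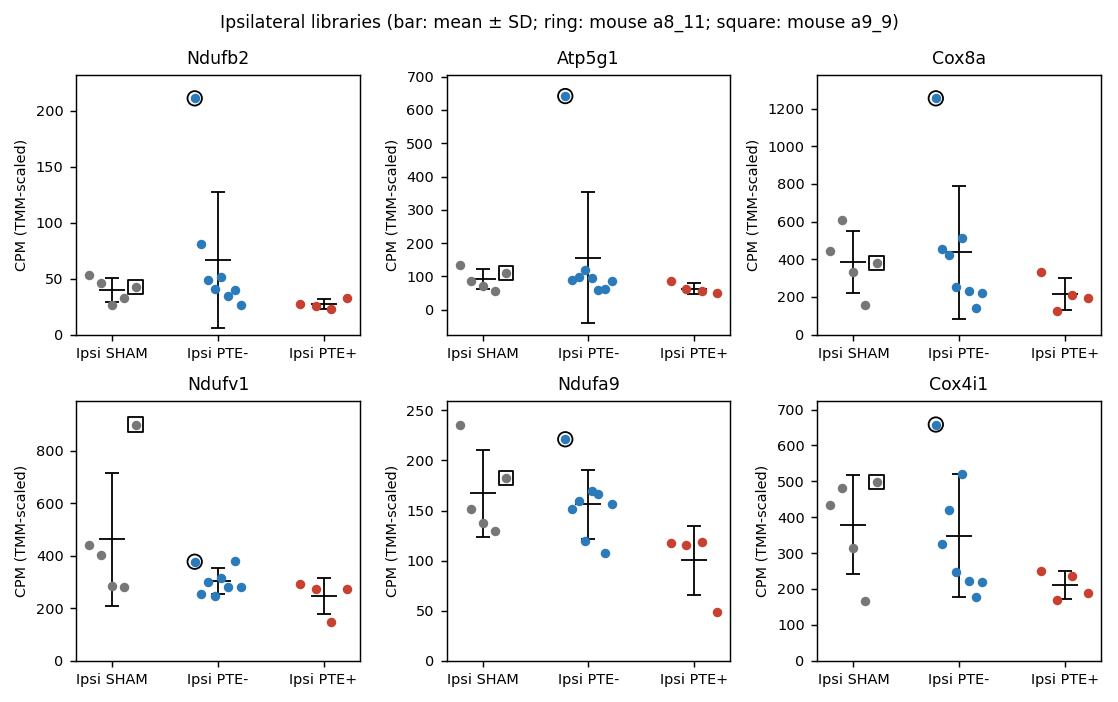
TMM-scaled CPM of 6 members in the ipsilateral libraries, with 1 point per library, the mean ± SD of each group, a ring around mouse a8_11 and a square around mouse a9_9. For Ndufb2 (211 CPM), Atp5g1 (642 CPM) and Cox8a (1254 CPM) the ringed PTE- library lies far above its group, and for Ndufv1 (900 CPM) the squared SHAM library does.

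Between ipsilateral PTE- and SHAM astrocytes 3 members were called, all lower in PTE-, against 0.986% of all genes (0.544% lower), and values are given for 2 of them. By an unadjusted edgeR p under 0.05 alone it was the same 3 members, against 1.58% of all genes. The gamma subunit of the central stalk of complex V, Atp5c1 (ENSMUSG00000025781, chr2:10056016-10080510), measured 399, 364, 604, 200.5 and 214 CPM in SHAM libraries and 164 to 310 CPM with a median of 215 in PTE- libraries (log2 fold change -0.63 ± 0.27, edgeR p = 0.0295). Ndufv1 (ENSMUSG00000037916, chr19:4007384-4012806), the complex I core subunit that takes electrons from NADH, measured 440.1, 403, 900.1, 286 and 281 CPM in SHAM and 247 to 381 CPM in PTE- libraries (-0.60 ± 0.28, p = 0.0417). In both genes the highest SHAM value came from the same library, a9_9, and without it no member was called, with changes of -0.36 and -0.21. None was called without PTE- a9_12 either, and 1 was without PTE- a8_9, a8_14, a9_14 or a9_16. The calls also depended on the tool: RLE size factors gave no call, and DESeq2 gave 3 that were higher in PTE- (Cox6b2, Ndufc1 and Cox7c), while limma on log2(TPM + 1) gave 3 higher and 1 lower. Cox6b2, the testis form of a complex IV subunit, measured 5.80, 6.80, 5.29 and 5.76 CPM in 4 SHAM libraries and less in the fifth, a9_9, and 5.09 to 33.2 CPM with a median of 11.3 in PTE- libraries (log2 fold change 1.55 ± 0.80, p = 0.0676 in edgeR). The median over the members was 0.14, that of all genes 0.02, and without a8_11 the former was -0.07. It was 0.29 within a8 mice, 0.04 within a9 mice and -0.08 with a covariate for detected genes. Of the 10 astrocyte markers 8 were below 0 (median -0.36), with summed levels of 5630 to 18520 TPM in PTE- and 13700 to 20990 TPM in SHAM libraries, and all 5 ependymal and choroid plexus markers were above 0 (median 1.84), and their part in the result was not tested.

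Between ipsilateral PTE+ and SHAM astrocytes 4 members were called, all lower in PTE+, against 0.49% of all genes (0.396% lower), and values are given for 3 of them. By an unadjusted edgeR p under 0.05 alone it was the same 4 members, against 1.66% of all genes. Of 97 members, 84 were below 0, with a median of -0.31 (-0.18 without SHAM a8_16), against 0.00 over all genes and -0.22 over the genes above 100 TPM. By complex the medians were -0.26 in I (-0.06 without SHAM a8_15), -0.32 in II, -0.33 in III (-0.12 without SHAM a8_15), -0.63 in IV (-0.30 without SHAM a8_16) and -0.37 in V, with all 16 tested nuclear members of complex V and all 8 of complex III below 0, and the mitochondrial median was -0.29 (0.13 without SHAM a8_16 and -0.01 without PTE+ a9_17). Ndufv1 measured 291, 273.5, 146.5 and 275 CPM in PTE+ libraries, against the SHAM values given above (log2 fold change -0.91 ± 0.33, edgeR p = 0.0141). Ndufa9 (ENSMUSG00000000399, chr6:126821721-126849136) had -0.74 ± 0.34 (p = 0.0446). Its levels were 118, 115.5, 119 and 48.9 CPM in PTE+ and 236, 152, 182.5, 137 and 129.5 CPM in SHAM libraries. The lowest PTE+ value, that of a9_19, lay far below the other 3, and without it the change was -0.51 (p = 0.151). Cox4i1 (ENSMUSG00000031818, chr8:120668222-120674207) measured 250.3, 168, 236 and 188 CPM in PTE+ and 434, 480.2, 497.5, 314.5 and 168 CPM in SHAM libraries (-0.85 ± 0.40, p = 0.0490). The PTE+ libraries were close together, and a single SHAM library, a9_11, reached as low as they did. Without SHAM a9_9 none of the 4 passed, with values of -0.52 for Ndufv1, -0.70 for Ndufa9 and -0.73 for Cox4i1. Of all members, 1 passed without PTE+ a8_10, a9_18 or a9_19 or SHAM a8_15 or a8_16, 2 without PTE+ a9_17, 6 without SHAM a9_10 and 7 without SHAM a9_11. The median over the members was -0.46 in a8 mice, with 1 PTE+ library, and -0.15 in a9 mice. The astrocyte markers were also lower, 9 of 10 below 0 with a median of -0.30, as were all 7 oligodendrocyte markers tested, and their part in the result was not tested.

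Other genes of the pathway, taken by list, showed few called members on the ipsilateral side. None of the 46 tested assembly factors, the 15 electron carriers with cytochrome c1, the 10 nucleotide and phosphate carriers, the 18 regulators of mitochondrial biogenesis, the 21 genes of the TCA cycle or the 78 of the mitochondrial ribosome had an unadjusted edgeR p under 0.05 in any of the 3 ipsilateral comparisons, against 1.75%, 1.58% and 1.66% of all genes for PTE+ against PTE-, PTE- against SHAM and PTE+ against SHAM. In PTE+ against PTE- the medians of these lists were 0.08, -0.08, 0.04, 0.41, 0.08 and -0.20 in the same order, beside -0.48 for the subunits. The subunit median was -0.21 without PTE- a8_11 and -0.14 within a9 mice. The medians of these lists are not given for those fits, so the gap to the subunits there is not known. Of the 18 genes of glycolysis, 3 were lower in PTE- and 2 in PTE+ than in SHAM, with medians of -0.24 and -0.36. Of the 82 tested genes of the cytosolic ribosome, 2 were lower in PTE+ than in PTE-.

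The hemispheres were compared in the 17 mice with both libraries, to ask whether the side of the impact differs and whether it does so only after injury. In SHAM mice 1 of 97 members was called, against 0.165% of all 15731 genes (0.102% higher). By an unadjusted edgeR p under 0.05 alone it was the same 1 member, against 323 of the 15731 genes. Ndufv1 was higher on the ipsilateral side (log2 fold change 0.73 ± 0.28, edgeR p = 0.0124), with 376, 249, 215, 379 and 416 TPM contralaterally and 399.5, 377, 984, 351 and 373 TPM ipsilaterally in mice a8_15, a8_16, a9_9, a9_10 and a9_11. The ipsilateral level was the higher one in 3 of these mice, and a9_9 held the largest step, without which the difference was 0.23 (p = 0.386). Without a8_15 2 members were called. With the mouse as a block Ndufv1 did not pass (0.59, p = 0.0565). The short mt-Atp8 had the next smallest p (-1.42 ± 0.75, p = 0.0682), followed by Ndufb11 (-0.72 ± 0.41, p = 0.0914, with -1.02 and p = 0.0358 without a8_15 and -0.33 without a8_16) and Cox7c (-1.01 ± 0.61, p = 0.107), and the members' median was -0.07 against 0.00 over all genes.

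In PTE- mice 2 members were called, both lower on the ipsilateral side, against 1.75% of all genes (0.839% lower). An unadjusted edgeR p under 0.05 alone was met by the same 2 and by 717 of the 15731 genes. Ndufc2 (ENSMUSG00000030647, chr7:97400003-97407802), an accessory subunit of the membrane arm of complex I, had 180.5 to 442 TPM ipsilaterally and, in the same 8 mice, 354 to 653 TPM contralaterally (-0.74 ± 0.31, p = 0.0223). Atp5c1 had 318 to 516 TPM ipsilaterally and 354 to 580 TPM contralaterally in these mice (-0.50 ± 0.24, p = 0.0400). Each gene's sides overlapped, and both passed with the mouse as a block as well. Without mouse a8_11 neither passed, at -0.61 (p = 0.0538) and -0.39 (p = 0.0879), while 2 other members were called. No member was called without mouse a9_15, 1 was without a8_14, a9_12 or a9_16, and 3 were without a9_13. Next in order were mt-Nd1 (-0.79 ± 0.46, p = 0.0955) and Ndufa10 (-0.50 ± 0.30, p = 0.1004). Without a8_11 these were -0.06 (p = 0.894) and -0.21 (p = 0.381), and without a9_13 mt-Nd1 was -1.12 (p = 0.0285). All 13 mitochondrial mRNAs had fitted values below 0, with a median of -0.54, but this rested on mouse a8_11, whose mitochondrial sum was 122300 TPM contralaterally and 23070 TPM ipsilaterally. Without that mouse the mitochondrial median was -0.03, with the mouse as a block it was -0.21, and mouse by mouse the sum was higher ipsilaterally in 4 of 8.

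In PTE+ mice 1 member was called, against 0.458% of all genes (0.216% lower). An unadjusted edgeR p under 0.05 alone was met by the same 1 and by 461 of the 15731 genes. Ndufa9 was lower on the ipsilateral side in all 4 mice (-0.78 ± 0.38, edgeR p = 0.0456). In a8_10, a9_17, a9_18 and a9_19 it had 202, 221, 335 and 252 TPM contralaterally and 171, 185, 174 and 74.4 TPM ipsilaterally. Without a9_19 the difference was -0.53 (p = 0.222), and no member was called without a9_18 or a9_19. With the mouse as a block 2 members passed, Ndufa9 (-0.84, p = 0.0354) and Cox8a (-0.73, p = 0.0334). Ndufb9, an accessory complex I subunit, had -0.67 ± 0.48 (p = 0.180), and mt-Nd3 and mt-Nd4l had -1.07 ± 0.81 (p = 0.198) and -0.92 ± 0.74 (p = 0.223). The nuclear median was -0.19 and the mitochondrial one -0.69 (-0.46 without a9_19), with 13 of 13 below 0, against -0.02 over all genes. The mitochondrial sum was lower ipsilaterally in 3 of the 4 mice, with log2 ratios of -1.66, -0.16 and -1.18 in a9_17, a9_18 and a9_19 and of 0.50 in a8_10. None of the mitochondrial members passed the test. All 6 endothelial markers were lower ipsilaterally too (median -0.95), and their part in these values was not tested.

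**Figure D5:**
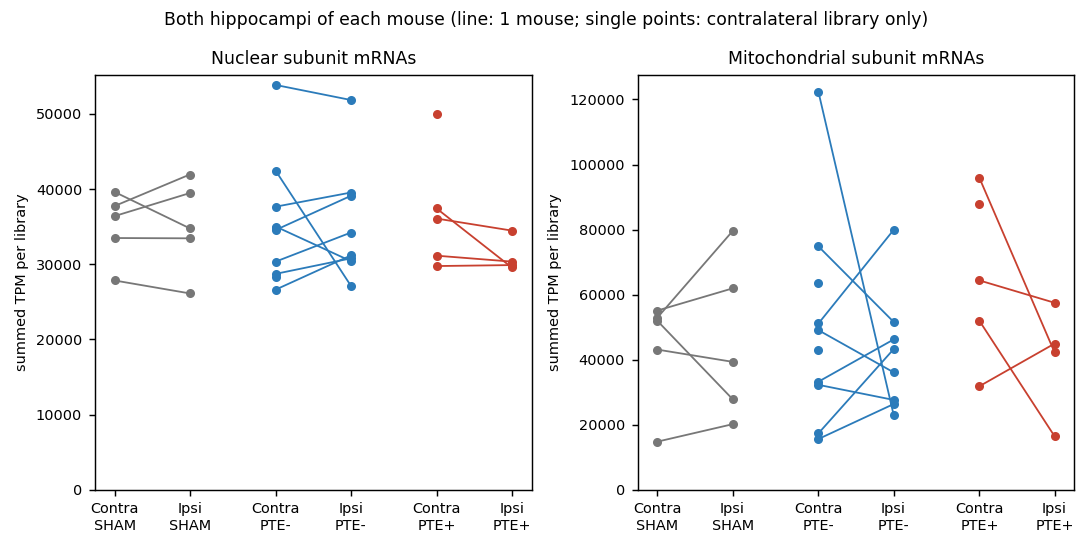
Summed TPM of the nuclear (left) and mitochondrial (right) subunit mRNAs in both hippocampi, with a line for each of the 17 mice and single points for the 3 mice with a contralateral library only. The nuclear sum of a9_15 goes from 42450 TPM contralaterally to 27160 TPM ipsilaterally, the widest step of a nuclear sum, and the mitochondrial sum of PTE- mouse a8_11 goes from 122300 TPM contralaterally to 23070 TPM ipsilaterally.

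Whether the side difference itself differed between groups was tested as an interaction. Between PTE+ and PTE- mice none of the 97 members had an unadjusted p under 0.05 in edgeR, with or without the mouse as a block, against 2.94% of all genes. The smallest p was that of Atp5c1 (difference of log2 fold changes 0.63 ± 0.41, p = 0.131). Between PTE- and SHAM mice 1 member passed, against 3.13% of all genes: Ndufv1, with a difference of -0.80 ± 0.35 (p = 0.0295), the gene whose SHAM difference rested on mouse a9_9. With the mouse as a block Ndufv1 did not pass (-0.64 ± 0.37, p = 0.0992) and Atp5b did (-0.34 ± 0.15, p = 0.0379).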

How the data were processed

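Hippocampal astrocytes were isolated with ACSA-2 beads 4 months after injury, and cDNA was made with the SMART-Seq V4 kit, which keeps no strand. Per the labels and methods, adapters were removed with Trim Galore 0.6.4 and reads were aligned to mm10 with Bowtie2 2.4.1. The authors deposited, per gene, expected counts from RSEM 1.2.28, given as whole numbers, and TPM values from the same run, which are scaled by transcript length. Reads shared by near-identical genes are split by RSEM, so a value of 0 can be a failed estimate. Of 21975 gene identifiers, 99 were members, which all entered the fits, counts and sums, and the values of 1 of them are not reported here. Members, gene lists and marker lists were chosen with earlier results of these data known. Groups follow the labels, and each library of a group comes from a separate mouse.

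Counts were tested with edgeR 4.0.16 in R 4.3.3 (filterByExpr, TMM, quasi-likelihood test, two-sided), in one fit per side over the 3 groups, and for the sides and their interactions in one fit of the 34 libraries of mice with both sides. The fits within a side were tested on simulated data with large changes and a smaller spread between libraries than here. In the real data the fitted coefficient of variation between libraries was 1.32 contralaterally and 1.40 ipsilaterally. That test therefore does not show how well changes of the size reported here are found. The criteria, which follow the study's methods, combined a mean level above 5 TPM in a compared group with a change of 1.2-fold or more and an unadjusted p under 0.05. The submitters' notes name DESeq2 1.36.0. Genes named in a comparison were the members with an unadjusted p under 0.05 (at most 6 in each direction by p) or, where fewer than 4 had one, the 4 with the smallest p. The highest member of each complex, pairs of isoforms and core subunits were named for their levels. Standard errors follow ±, unless SD is given. Sums and levels between genes are TPM. The same mouse gave same-numbered samples, so the numbers pair the sides. Deviations from the group means correlated at a median of 0.0838 within a mouse and -0.0164 between mice of a group. The alternatives were RLE size factors, no filter, the name prefix (a8 or a9, of unknown meaning) or the number of detected genes as covariate, DESeq2 1.42.0, limma 3.58.1 on log2(TPM + 1), the mouse as a block and each library left out. Each prefix alone, and the ipsilateral libraries of a8_11 and a9_12 left out, were chosen after seeing the data. Where a prefix leaves 1 PTE+ library, that library is assumed to vary like the other groups. Promoter sequences are RefSeq's on GRCm38.p6, which has the coordinates of mm10, and 17 nuclear members without an entry were not searched.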

Additional observations from a re-analysis of the deposited data

Results flagged for a closer look

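The highest or lowest library of each group was set against the rest of its group for 84 groups of 4 to 10 libraries, as the gap to its nearest neighbour divided by the whole range of the group. In 15 of them the gap passed Dixon's limit, which chance alone passes in about 1 in 20 groups of independent, normally spread values. The single genes flagged here were named for a small p in these same data, and the sums share members. That rate therefore does not apply to these groups, and the 15 are given as a description. The 15 came from 10 libraries, and 5 of them from ipsilateral PTE- a8_11.

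In that library the gap was 0.590 of the range for the summed TPM of nuclear complex I (20700 against 14370 in the next library), 0.770 for complex V (12840 against 9034), 0.705 for the CPM of Ndufb2, 0.897 for Atp5g1 and 0.669 for Cox8a, in each as the highest of its group. Its contralateral partner held the highest complex IV sum (17140 against 10160 TPM, gap 0.562). Both libraries of mouse a8_11 held the highest nuclear sum of their group, but not in complex II. There they had 1022 TPM contralaterally and 939.8 TPM ipsilaterally, under the PTE- means of 1094 and 1130 TPM. The mitochondrial sum of this mouse was the highest of all contralaterally and the lowest of its group ipsilaterally.

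In ipsilateral SHAM a9_9, Ndufv1 was the highest (gap 0.743) and Cox6b2 the lowest (0.716). In ipsilateral PTE+, a8_10 was highest for the nuclear sum (34480 against 30350 TPM, gap 0.842), a9_19 lowest for Ndufa9 (0.948) and a9_18 lowest for Ndufv1 (0.880). In contralateral PTE+, a8_17 was highest for Cox7a2l (0.899), and a9_17 was the only library with any Cox8b (0.164 CPM, gap 1.0). Contralateral SHAM a9_11 was lowest for Ndufv3 (0.732) and contralateral PTE- a9_20 highest for Cox7a1 (14.6 against 6.37 CPM, gap 0.562).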

How the results depend on the processing

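The number of called members changed with the setting in most comparisons. In contralateral PTE+ against PTE- it was 0, and 1 with the detected-genes covariate, 1 with DESeq2, 1 with limma and 1 in a9 mice alone, and 0 to 3 when each library was left out. In contralateral PTE- against SHAM it was 1, and 3 with DESeq2, 0 with limma, 0 in a8 mice and 0 in a9 mice, and 0 to 2 on leaving out a library. In contralateral PTE+ against SHAM it was 0, and 0 to 1 on leaving out a library. In ipsilateral PTE+ against PTE- it was 2, and 0 without the filter, 0 with the prefix or the detected-genes covariate, 12 with DESeq2, 1 with limma, 0 in a8 mice, 0 in a9 mice, 1 without a8_11 and a9_12, and 0 to 6 on leaving out a library. In ipsilateral PTE- against SHAM it was 3, and 0 with RLE size factors, 1 in a8 mice, 0 in a9 mice, 1 without a8_11 and a9_12, and 0 to 3 on leaving out a library. There the direction of the calls changed with the tool, with 3 lower in edgeR, 3 higher in DESeq2, and 3 higher and 1 lower in limma. In ipsilateral PTE+ against SHAM it was 4, and 1 with RLE size factors, 1 without the filter, 2 with the prefix covariate, 2 with DESeq2, 1 with limma, 0 in a8 mice, 1 in a9 mice, and 0 to 7 on leaving out a library. The cause of these changes was not tested.

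With the mouse as a block, pairing the sides, the calls were 0 in place of 1 in SHAM, 2 in PTE- as without it, and 2 in place of 1 in PTE+ mice. RLE size factors gave 1 in PTE- mice in place of 2. Leaving out each mouse gave 0 to 2 calls in SHAM, 0 to 3 in PTE- and 0 to 1 in PTE+. No called value changed sign. Of the values of single named members under the alternatives, 462 kept their side of the p threshold, 130 went from under to over it and 20 from over to under. Only members under it in the main fit could give the 130. The 462 include members that were over it in both fits, so they do not show that the calls were stable. Each library held at least 25371887 counts, and low members such as Cox8b and Cox6a2 rest on few of them. This total does not show that higher members were free of such error. Ndufs4 and Cox7a2l were at or near 0 in 2 libraries each, with at least 508 and 533 counts in the others.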

Other observations

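Some genes with high counts in nearly all libraries were at or near 0 in a few, and the subunits were seldom among them. Of 4088 genes with at least 200 counts in at least 32 of the 37 libraries, 1749 (42.8%) had at most 3 counts in 1 to 5 libraries, and 3 of the 90 members at that level did (3.33%). Among genes with a mean above 100 TPM it was 207 of 1561 (13.3%), and 1 of 86 members (1.16%). This count was chosen after the values were seen, and no test of the difference was run.

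The 3 members were Ndufa4l2, Ndufs4 and Cox7a2l. Ndufs4, an accessory subunit of complex I known from a mouse model of Leigh syndrome, was listed at 1 count in contralateral PTE- a9_14 and at 0 in contralateral PTE- a9_20, with at least 508 counts in the other libraries. Cox7a2l was listed at 0 in ipsilateral PTE- a8_11 and in ipsilateral SHAM a9_9, with at least 533 counts in the others. Ndufa4l2 was listed at 0 in ipsilateral PTE+ a9_19 and at 1 count in ipsilateral PTE- a8_11, with at least 247 in the others. The library with the most such genes was ipsilateral PTE- a8_11 with 1186, followed by contralateral PTE- a9_20 with 485, ipsilateral PTE- a8_14 with 388 and ipsilateral SHAM a9_9 with 322.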
